A study of Homo sapiens with 23 samples.

Results

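RNA from HCT116 cells lacking both *AGO1* and *AGO2* was compared with RNA from HCT116 cells lacking *AGO2* alone, so that the pair of lines differs in genotype by the added loss of *AGO1*. The samples were chosen by genotype label, and the lines to compare were picked with earlier results of these data known. They were 3 RNAseq replicates of the *AGO1/2* knockout line (genotype AGO1-/-, AGO2-/-) and 3 of the *AGO2* knockout line (genotype AGO2-/-), 6 of the 23 samples of the study, of which 15 were RNAseq and 8 were eCLIP. HCT116 is a human colorectal carcinoma line. Loss of *AGO2* is shared by all 6 samples, and no wild-type sample entered the comparison, so a difference described here says nothing of the direction relative to unedited cells. The lines were made by CRISPR editing of the same parental stock and grown in McCoy's medium with serum. Each genotype was represented by a single cell line, and the effect of losing *AGO1* cannot be told apart from other differences between those lines. The p-values below measure the spread between replicates of a line and not between lines.

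Argonaute (AGO) proteins hold a microRNA (miRNA) and use its seed, the bases near its 5′ end, to find partly complementary sites, mostly in the 3′ untranslated regions (3′-UTRs) of mRNAs. They recruit the TNRC6 (GW182) scaffolds, which in turn bring deadenylases and decapping enzymes that shorten the life of the mRNA. Human cells have AGO1, AGO2, AGO3 and AGO4, which bind largely overlapping sets of miRNAs, and AGO2 is the best known for cutting a fully paired target.

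The values were estimated counts per gene, given below as CPM, counts scaled to a common library total, after TMM scaling. Totals were 40419152 to 45271146 counts in the *AGO2* knockout samples and 28294976 to 30701840 in the *AGO1/2* knockout samples, so the group with the lower depth was the same in every comparison below. The file headers of the *AGO2* knockout samples carry the word quasi, a quantification mode that the other headers do not name, and neither the mode nor the depth can be told apart from the genotype. Log2 values of samples of the same line correlated at 0.986 to 0.994 across genes and those of different lines at 0.951 to 0.967. The spread between replicates corresponded to a coefficient of variation of 0.128. Differences are log2 values of *AGO1/2* minus *AGO2* knockout with their standard error (SE), from edgeR's quasi-likelihood test on all genes, and a gene was called when its Benjamini-Hochberg adjusted p was at or under 0.05.

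Of 21750 genes tested, 3069 rose (14.1%) and 3021 fell (13.9%), 28.0% in all. Most of these differences were modest. A total of 1053 genes rose and 515 fell by at least 2-fold, together 7.21% of those tested, and the median size of a log2 difference over all genes was 0.30. Replicates of the lines did not overlap for 43.3% of genes. These shares are the background against which the counts for single gene groups below are to be read.

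*AGO1*, the gene that separates the genotypes, was examined first. It (ENSG00000092847, chromosome 1, 35869808 to 35930532) had 160, 156 and 159 CPM in the *AGO2* knockout samples and 35.1, 37.4 and 36.1 CPM in the *AGO1/2* knockout samples. The groups were far apart, 4.37-fold lower with a log2 difference of -2.13 (SE 0.08, adjusted p = 1.87e-06 by edgeR's quasi-likelihood test). The transcript was thus reduced and not absent, and the *AGO1* and *AGO1/2/3* knockout lines, fitted together with these samples, had means of 35.4 and 31.7 CPM. *AGO2* RNA was still abundant in both lines (8q, the long arm of chromosome 8), at 260, 310 and 280 CPM against 317, 328 and 359 CPM, and did not pass the test (log2 difference 0.24, SE 0.10, adjusted p = 0.102), although it was called in a fit of all 12 knockout samples (log2 difference 0.26).

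The other Argonautes differed from each other. *AGO3* had 106 to 108 CPM in *AGO2* and 102 to 118 CPM in *AGO1/2* knockout cells and was not called (log2 difference 0.05, adjusted p = 0.734). *AGO4* had 20.2, 10.6 and 15.0 CPM against 21.7, 33.2 and 33.3 CPM. It rose by 0.94 on the log2 scale (SE 0.23, adjusted p = 0.0165), with groups that did not overlap (43.3% of all genes), but lost the call when *AGO2* knockout replicate 3 (adjusted p = 0.0601) or *AGO1/2* knockout replicate 2 (0.0647) or 3 (0.0609) was left out. Among the TNRC6 scaffolds, *TNRC6B* had 203, 176 and 189 CPM against 250, 290 and 266 CPM and rose (log2 difference 0.51, SE 0.10, adjusted p = 0.00528). *TNRC6C* rose from 47.7 to 48.5 CPM to 57.1 to 69.2 CPM (log2 difference 0.41, adjusted p = 0.0119), a call lost after a correction for GC content and transcript length (log2 difference 0.24, adjusted p = 0.11) and without *AGO2* knockout replicate 3 (adjusted p = 0.0569). *TNRC6A*, with 134 to 187 CPM against 148 to 178 CPM, did not pass the test. *DICER1*, which cuts miRNA precursors, and its partner *TARBP2* were not called either, with log2 differences of -0.14 and -0.16.

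**Figure D1:**
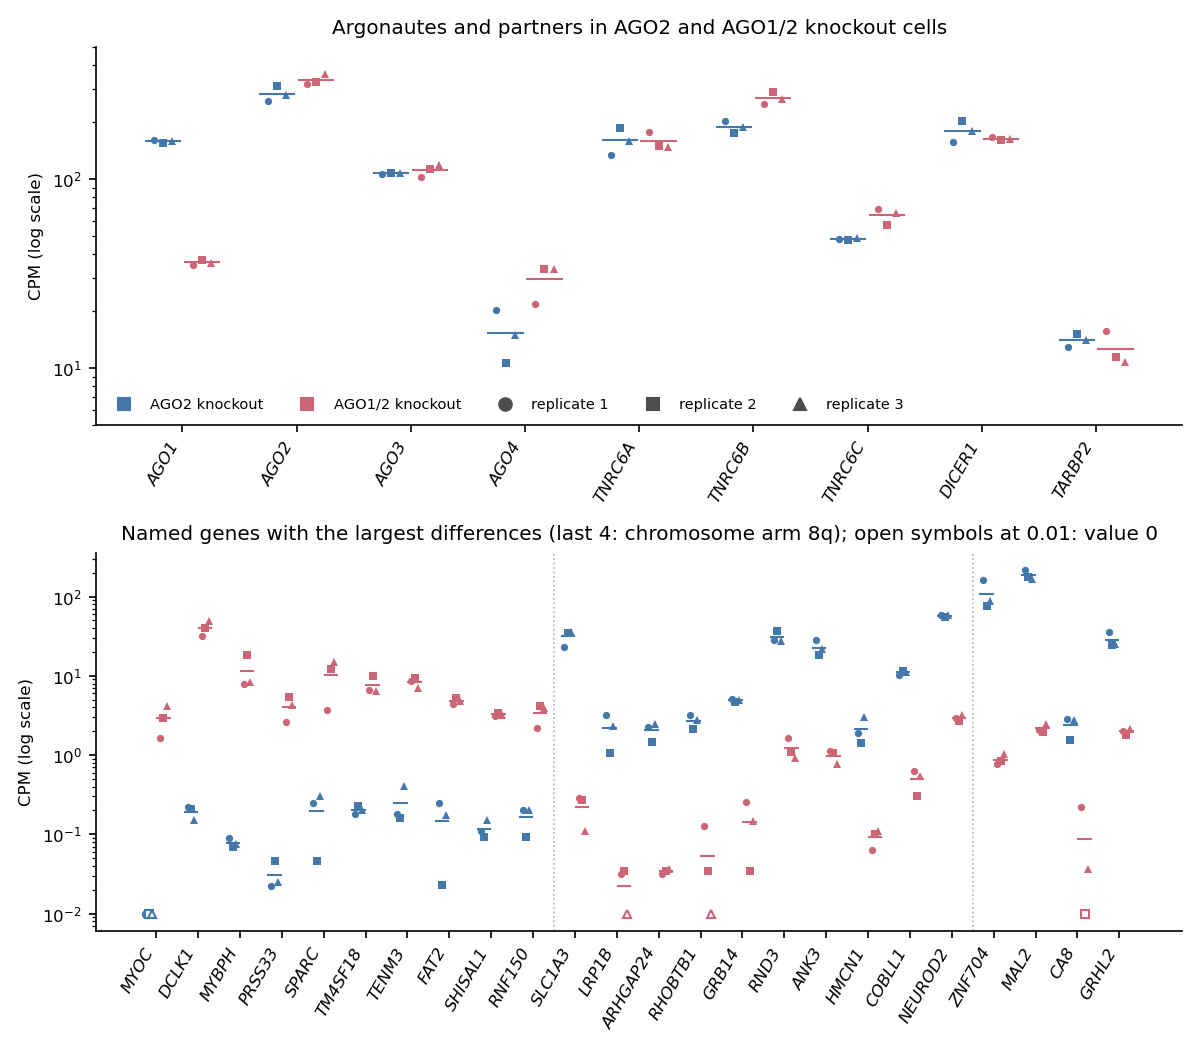
CPM of single samples on a logarithmic axis, with *AGO2* knockout samples in blue, *AGO1/2* knockout samples in red, a symbol for each replicate and a line at each mean; the upper panel holds the Argonautes and their partners and the lower panel the genes with the largest differences. *AGO1* falls from 156 to 160 CPM to 35.1 to 37.4 CPM. The genes of the lower panel were chosen among those whose groups did not overlap, as held for 43.3% of all genes tested.

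Genes that make, load or degrade miRNAs moved little. Of 25 tested, 1 rose and 5 fell (median log2 difference -0.15, against 0.03 over all genes). Leaving out single samples gave 2 (without *AGO1/2* knockout replicate 2 or 3 or *AGO2* knockout replicate 2 or 3) to 9 decreases (without *AGO1/2* knockout replicate 1), and 3 increases without *AGO1/2* knockout replicate 3. *ZSWIM8*, a ubiquitin ligase subunit for the decay of AGO with its miRNA, rose from 18.8 to 18.9 CPM to 23.0 to 28.1 CPM (log2 difference 0.47, adjusted p = 0.00944), but was not called after correction for GC content and length. The largest decreases were in *HSP90AB1*, a chaperone that helps load AGO, at -0.72 (adjusted p = 0.00519), and in the mitochondrial exonuclease *PNPT1* at -0.66 (adjusted p = 0.0282), a call lost without replicate 2 or 3 of either line and after the GC and length correction. Of 33 genes for deadenylation and decapping, 2 rose (6.06%) and 5 fell (15.2%). *BTG2* (0.89) and *TOB1* (0.57), adaptors of the CCR4-NOT deadenylase, rose, and the deadenylase *CNOT6L* (-0.60) and *LSM1*, part of a ring that promotes decapping (-0.54), fell. *LSM1* was called neither after that correction nor without replicate 2 or 3 of either line. The 5 decreases became 2 without *AGO1/2* knockout replicate 2 or 3 or *AGO2* knockout replicate 2 or 3. Among 35 host genes of miRNAs, 7 rose and 6 fell. *CTDSPL*, host of miR-26a, rose by 1.23 and *IGF2*, host of miR-483, by 0.97, and the miR-17-92 host *MIR17HG* fell by 0.96 on the log2 scale, from 18.0 to 22.9 CPM to 9.01 to 12.3 CPM. These counts fell to 4 and 3 without *AGO1/2* knockout replicate 2 or *AGO2* knockout replicate 3, and decreases also to 3 without *AGO1/2* knockout replicate 3.

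The let-7 family is the best studied set of miRNAs with well known targets, and its members share a seed. The mature sequences below are those of RefSeq on GRCh38.p14, with the seed in capitals. They are shown because the site counts that follow use the reverse complement of this seed, CTACCTC.
hsa-let-7a-5p: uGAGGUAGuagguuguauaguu
hsa-let-7f-5p: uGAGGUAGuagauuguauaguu

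Of 31 let-7 targets tested, 4 rose and 4 fell, 12.9% each way, which is close to the background, and the median log2 difference was -0.06. Only 2 rose without *AGO1/2* knockout replicate 2 or *AGO2* knockout replicate 3, and 7 fell without *AGO1/2* knockout replicate 1. *IGDCC3*, a surface receptor of the embryo, rose by 1.30 (SE 0.26, adjusted p = 0.0066), from 0.423, 0.435 and 0.350 CPM to 0.729, 1.16 and 1.12 CPM. *IGF2BP1*, an oncofetal RNA-binding protein, rose by 1.06 (SE 0.17, adjusted p = 0.00246), from 1.25, 1.24 and 1.0 CPM to 2.54, 2.56 and 2.21 CPM. *HMGA2*, a chromatin protein and the classical let-7 target, had 620, 650 and 555 CPM against 755, 884 and 845 CPM, and rose by 0.44 (SE 0.10, adjusted p = 0.0123). These 3 genes hold 4 CTACCTC sequences each in their 3′-UTR, and *CCND1*, the fourth that rose, holds none in the transcript used. The other targets with 4 or more, *LIN28B*, *HIC2*, *NR6A1* and *TRIM71*, were not called, with log2 differences of -1.03, -0.16, 0.13 and 0.33. The 4 that fell were *ACVR1C* (-2.60), *MYC* (-1.05, 8q), *E2F5* (-0.53, 8q) and *E2F6* (-0.38), with 1, 0, 1 and 1 such sequences. Only exact copies of CTACCTC in 1 transcript were counted, so a count of 0 does not say that a gene has no let-7 site of another form.

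The windows below are 30 bases of the mRNA strand from hg38 with the CTACCTC match in capitals, for the 4 sites of *HMGA2*, the first of *IGF2BP1* and of *IGDCC3*, and the single sites of *ACVR1C* and *E2F6*, to set genes that rose beside genes that fell. All lie in 3′-UTR exons of GENCODE v44.
HMGA2 site 1, chr12:65963294-65963323 (+): gggcgccaacgttcgatttCTACCTCagca
HMGA2 site 2, chr12:65964529-65964558 (+): atatccccactactcaataCTACCTCtgaa
HMGA2 site 3, chr12:65964941-65964970 (+): ctaattgacttgcaaagacCTACCTCcaga
HMGA2 site 4, chr12:65965794-65965823 (+): gtacaatcaaaacacactaCTACCTCttaa
IGF2BP1 site 1, chr17:49051057-49051086 (+): atgctgtgtgcgaagtaaaCTACCTCaagg
IGDCC3 site 1, chr15:65328447-65328476 (-): ctgttttggctctcagcacCTACCTCagcc
ACVR1C site 1, chr2:157533818-157533847 (-): ttgccattttttttttgttCTACCTCaaag
E2F6 site 1, chr2:11445450-11445479 (-): ttcacatacctagctgtttCTACCTCattg
The windows were found by this exact match, so the capitals are the same in each and say nothing of direction.

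Over all 12774 genes with an annotated 3′-UTR and a mean level of 1 CPM or more, 11.7% held CTACCTC. Their median log2 difference was -0.01, against -0.05 for genes without it, and 17.2% rose and 19.7% fell, against 16% and 20.3%. Genes with the sequence had longer 3′-UTRs, with a median of 3166 against 1205 bases, and among the longest 3′-UTRs (4451 against 3459 bases) the medians were 0.01 and -0.02. For the seed matches of miR-21-5p (ATAAGCT), miR-27a-3p (ACTGTGA) and miR-29a-3p (TGGTGCT), on the mRNA strand only, the medians with a match were -0.01, -0.03 and -0.02, each against -0.05 without. The match of miR-125b-5p, CTCAGGG, stood in 16.8% of 3′-UTRs, and those genes had a median of 0.03 against -0.06. Of them 19.7% rose and 14.9% fell, against 15.4% and 21.3% of genes without it. The letters of this match are rich in G and C, and GC content moved with the difference in the same direction, as given further below. Its part in this was not tested. Over the 5 seed matches the medians with and without a match all lay between -0.06 and 0.03.

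The largest increases lay in genes that were almost silent in *AGO2* knockout cells. *MYOC*, for a secreted glycoprotein known from the eye, had 0 counts in each *AGO2* knockout sample and 1.65, 2.90 and 4.21 CPM in *AGO1/2* knockout samples, at least 40.9-fold higher against a floor of 3 counts per library. *DCLK1*, a kinase that marks tuft cells in the gut, had 0.223, 0.206 and 0.150 CPM against 32.2, 39.7 and 49.7 CPM, a log2 difference of 7.68 (SE 0.24, adjusted p = 4.64e-07). All 3 *AGO1/2* knockout samples were high. *MYBPH*, a muscle myosin-binding protein, rose from 0.0687 to 0.0891 CPM to 7.80 to 18.4 CPM (log2 difference 7.15). *PRSS33*, a serine protease, rested on 4 counts over the *AGO2* knockout samples against 357, a ratio of 130 (95% counting interval 50.2 to 479). *SPARC*, which binds collagen in the matrix, rose by 5.70, with 0.245, 0.0458 and 0.3 CPM against 3.68, 12.2 and 15.1 CPM, of which replicate 1 was well below the others. *TM4SF18* (5.21), *TENM3* (5.08), *FAT2* (5.01), *SHISAL1* (4.77) and *RNF150* (4.35) completed the 10. *TENM3* encodes a teneurin, an adhesion protein of neurons, and *FAT2* an atypical cadherin.

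These genes did not share a pattern over the other knockout lines. Means in the *AGO1* and the *AGO1/2/3* knockout lines were 2.64 and 333 CPM for *DCLK1*, 0.242 and 158 CPM for *TM4SF18* and 0.849 and 51.2 CPM for *SPARC*, low in the former and higher still in the latter. *MYOC* (3.26 and 2.42 CPM) and *RNF150* (3.87 and 2.17 CPM) had means in both near those of *AGO1/2* knockout cells (2.90 and 3.41 CPM in the same scaling). No test was made of these values. *SHISAL1* (0.382 and 0.684 CPM) and *PRSS33* (0.0215 and 0.375 CPM) were low in both.

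Among decreases outside 8q, *SLC1A3*, a glutamate and aspartate transporter, led. It had 23.4, 34.8 and 36.1 CPM in *AGO2* knockout samples and 0.285, 0.273 and 0.109 CPM in *AGO1/2* knockout samples, a log2 difference of -7.10 (SE 0.29, adjusted p = 1.9e-06). *NEUROD2*, a neuronal transcription factor, had 58.5, 55.4 and 58.5 CPM against 2.92, 2.69 and 3.19 CPM (log2 difference -4.29, SE 0.11, adjusted p = 1.17e-07), and its means of 3.14 CPM in the *AGO1* and 2.62 CPM in the *AGO1/2/3* knockout line left the *AGO2* knockout line as the one that stood apart. *RND3*, a small GTPase that relaxes the cytoskeleton, fell by 4.65 on the log2 scale, from 27.4 to 36.5 CPM to 0.907 to 1.65 CPM, and *ANK3*, the membrane adaptor ankyrin-G, fell by 4.53. Some were near the floor in *AGO1/2* knockout cells. *LRP1B* had 285 counts over the *AGO2* and 2 over the *AGO1/2* knockout samples, a ratio of 98.0 (95% counting interval 26.9 to 813). *ARHGAP24* had 265 against 3 counts (ratio 60.8, interval 20.6 to 297) and *HMCN1* 267 against 8 (ratio 23.0, interval 11.5 to 53.7). These intervals cover counting error only. *RHOBTB1* (-5.50), *GRB14* (-5.04) and *COBLL1* (-4.47) were the rest of the 10. *GRB14* and *COBLL1* are neighbours on chromosome 2, and *LRP1B* and *RND3* also lie there.

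Genes of the long arm of chromosome 8 stood apart as a block. Of 347 genes of 8q with a mean level of 1 CPM or more, 199 fell (57.3%) and 14 rose, against 17% that fell of 15504 genes outside it, and the median log2 difference was -0.51 against 0.00. On the short arm 16.2% of 191 genes fell and the median was -0.01. The block began within the arm. Genes between 45 and 70 Mb had a median of -0.10 (12 of 52 fell), whereas of 295 genes beyond 70 Mb 187 fell (63.4%, median -0.59). This border was set after the values were seen. Windows of 10 Mb beyond it had medians of -0.45 to -0.97 over the 12 to 90 genes tested in each, and 247 windows of at least 20 genes outside chromosome 8 ranged from -0.46 to 0.24. All 3 *AGO1/2* knockout samples showed the shift alike, with medians of -0.50, -0.51 and -0.48 relative to the *AGO2* knockout mean. Beyond 70 Mb the same genes had medians of 0.01 in the *AGO1* and -0.62 in the *AGO1/2/3* knockout line, each against the same *AGO2* knockout samples. DNA was not measured, and a change in copy number of the arm cannot be told apart from lower transcription.

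**Figure D2:**
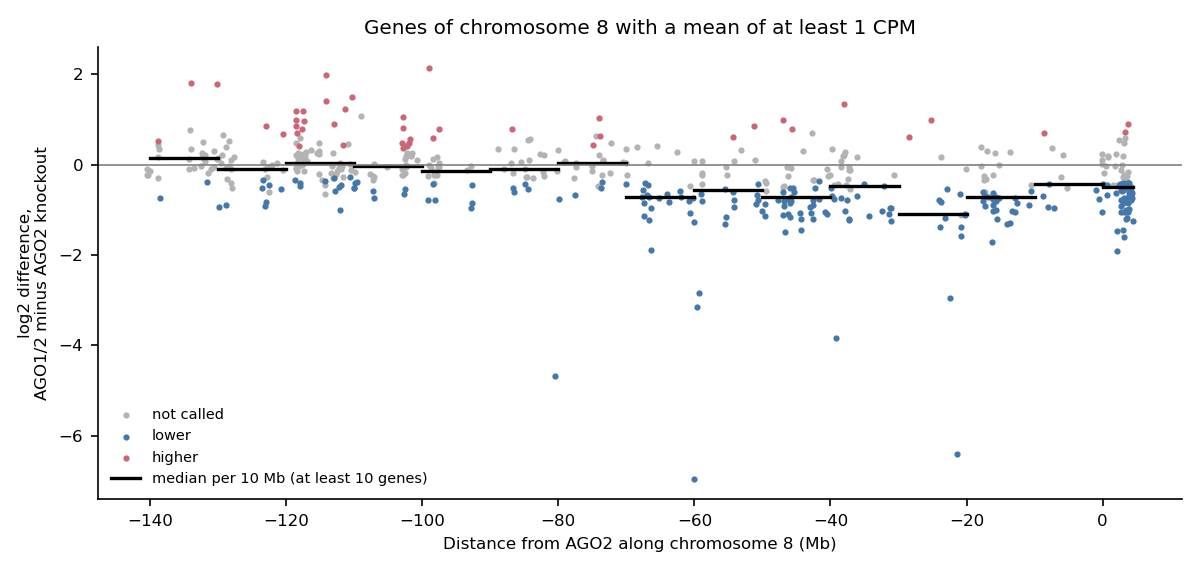
Log2 differences of genes on chromosome 8 with a mean level of 1 CPM or more against their distance from *AGO2* in Mb, colored by call, with black lines for the median of each 10 Mb. Medians lie near 0 over the left part, step down about 70 Mb before *AGO2*, and stay below 0 to the end of the arm.

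The 4 largest decreases on 8q went much further than the median of the arm, and they were not the only ones to do so. *ZNF704*, a zinc finger protein, had 160, 76.7 and 87.9 CPM against 0.761, 0.852 and 1.02 CPM (log2 difference -6.95, SE 0.34, adjusted p = 4.37e-06). *MAL2*, a membrane protein of apical transport in epithelia, had 216, 176 and 166 CPM against 2.09, 1.98 and 2.5 CPM (log2 difference -6.41, SE 0.16, adjusted p = 1.17e-07). *GRHL2*, a transcription factor that maintains epithelial junctions, had 36.1, 24.4 and 25.3 CPM against 2.03, 1.81 and 2.14 CPM (-3.84), and *CA8*, before 70 Mb, fell by 4.68. *MYC* (8q) had 314, 359 and 278 CPM against 135, 157 and 167 CPM, a log2 difference of -1.05 (SE 0.12, adjusted p = 0.000429), and 307 CPM in the *AGO1* and 57.4 CPM in the *AGO1/2/3* knockout line. The largest increases were in *MYBL1*, before 70 Mb, which rose by 1.03, from 21.9 to 28.1 CPM to 45.1 to 55.3 CPM, and *TRPS1*, which rose by 0.98 but lost the call without *AGO2* or *AGO1/2* knockout replicate 2. Genes of 8q are marked where they are named below, and *MYC* also counts among the decreases of the WNT and ERK lists.

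Interferon-stimulated genes rose in large numbers. They encode the proteins by which cells sense and resist viral RNA. Of 49 tested, 33 rose and none fell, with a median log2 difference of 0.85 against 0.03 over all genes, where 14.1% rose. *OAS1*, which makes the signal for RNase L, had 0.468, 0.412 and 0.150 CPM against 6.79, 7.70 and 1.34 CPM (log2 difference 3.91, SE 0.63, adjusted p = 0.00234). *IFI27* had 1.43, 1.17 and 1.48 CPM against 13.7, 18.7 and 3.77 CPM (log2 difference 3.16, SE 0.49, adjusted p = 0.00199). *IFI6*, with 6.48, 4.26 and 5.53 CPM, reached 66.7, 60.6 and 15.5 CPM (3.13). In each of these the *AGO1/2* knockout replicate 3 was the lowest of its line and still above all *AGO2* knockout samples.

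The increase spanned sensors, signaling and effectors. Of the cytosolic RNA sensors *RIGI* rose by 1.35 (15.3 to 19 CPM against 50.0, 52.1 and 27.0 CPM), *IFIH1* by 1.01 and *DHX58* by 1.33. Factors that carry the interferon signal to the nucleus rose as well, *IRF9* by 2.05 (4.03 to 6.37 CPM against 28.4, 25.0 and 13.1 CPM) and *STAT2* by 0.48, and *IRF7* rose by 1.58. Effectors that rose included *IFIT1* (2.58), *ISG15* (1.47) and *BST2* (3.14). *MX1* (0.56, adjusted p = 0.0583), *IFI44L* (0.03) and *STING1* (-0.34) were not called. Over the samples the median of the list was 1.0, 0.96 and 0.32 in *AGO1/2* knockout replicates 1 to 3 and -0.10 to 0.17 in the *AGO2* knockout samples, on the log2(CPM + 0.5) scale relative to the *AGO2* knockout mean. The number that rose was 19 without *AGO2* knockout replicate 3, 20 without *AGO1/2* knockout replicate 2 and 35 without *AGO1/2* knockout replicate 3. The list medians of the *AGO1* and *AGO1/2/3* knockout lines against the same *AGO2* knockout samples were 0.00 and 0.47.

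Interferon genes themselves were almost without counts. Of 22 listed, 16 had 0 counts in all 6 samples, and apart from *IFNE* none exceeded 8 counts in a sample. *IFNE*, an interferon of epithelia that is not induced by viral sensing, had 0.267, 0.481 and 0.401 CPM against 2.25, 2.11 and 2.54 CPM (log2 difference 2.58, SE 0.24, adjusted p = 0.000127). It was singled out after the values were seen. Of 17 genes of MHC class I and its peptide supply, 7 rose and 1 fell. *HLA-C* (0.71) and the trimming peptidase *ERAP1* (0.83) rose most, and the immunoproteasome subunit *PSMB10* fell by 0.66 on the log2 scale, a call lost without replicate 2 or 3 of either line. The 7 increases became 3 without *AGO1/2* knockout replicate 2 or *AGO2* knockout replicate 2 or 3. For 22 NF-kB targets and chemokines the counts were 6 and 3, with *CSF1* (1.54) and *BIRC3* (1.32) higher, and the adhesion receptor *ICAM1* (-1.68) lower.

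**Figure D3:**
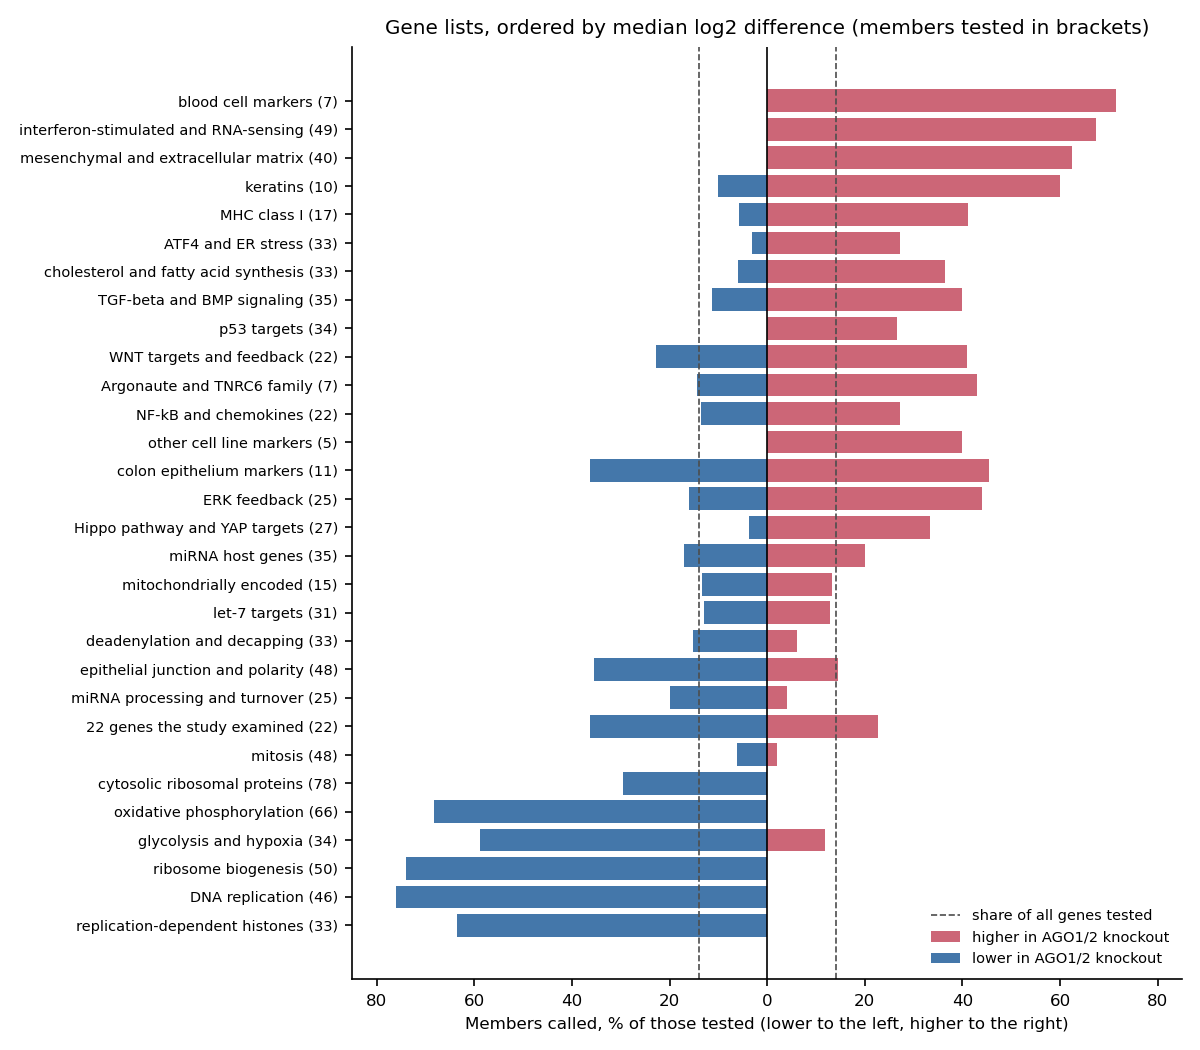
Share of the tested members of each gene list that was called higher (red, to the right) or lower (blue, to the left) in *AGO1/2* than in *AGO2* knockout cells, ordered by the list's median log2 difference, with dashed lines at 14.1% and 13.9%, the shares of all genes tested. The lists with the lowest medians, histones, DNA replication and ribosome biogenesis, have bars to the left alone, and the interferon and extracellular matrix lists have bars to the right alone.

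Mesenchymal and extracellular matrix genes rose as a group. Of 52 members 40 had enough counts to be tested. Of these 25 rose and none fell, with a median log2 difference of 0.71. In this list and others, a member almost silent in *AGO2* knockout samples passed the filter only through the *AGO1/2* knockout samples. Such a member could count only as an increase. Beside *SPARC*, *TGFBI*, a matrix protein named for its induction by TGF-beta, had 0.0446, 0.0915 and 0 CPM against 0.476, 0.579 and 1.05 CPM (3.8), low in both lines. *TIMP3*, an inhibitor of matrix proteases, had 0.535, 0.252 and 0.376 CPM against 3.49, 5.04 and 4.93 CPM (3.52). *VIM*, the intermediate filament of mesenchymal cells, had 2.16, 2.31 and 2.88 CPM against 24.4, 21.3 and 25.4 CPM (log2 difference 3.27, SE 0.14, adjusted p = 2.35e-06). The transcription factor *ZEB1*, a known target of the miR-200 family, rose by 1.51, from 7.40 to 10.5 CPM to 22.8 to 27.8 CPM, and *FN1* by 0.72, whereas *ZEB2* (-0.33) and *SNAI1* (-0.18) were not called. The collagens *COL1A1* and *COL1A2* were not called either, with log2 differences of 0.14 and 0.38. Leaving out single samples gave 20 to 24 increases and no decrease. The *AGO1* and *AGO1/2/3* knockout lines had list medians of 0.45 and 1.09 against the same samples.

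Epithelial junction and polarity genes fell more often than the background. Of 48 tested, 17 fell (35.4%, against 13.9% of all genes) and 7 rose (14.6%, close to the 14.1% of all genes). Leaving out single samples gave 12 to 15 decreases. The 7 increases became 4 without *AGO1/2* knockout replicate 2 or *AGO2* knockout replicate 3. *CDH1*, E-cadherin, fell from 57.1 to 80.4 CPM to 26.8 to 35.6 CPM (log2 difference -1.12, SE 0.15, adjusted p = 0.000995). *EPCAM* fell from 257, 278 and 256 CPM to 129, 101 and 105 CPM (-1.24), and the tight junction genes *CLDN7* (-1.19) and *MARVELD3* (-1.21) fell by about the same. Of the 17, *GRHL2*, *ESRP1* (-1.17) and *SCRIB* (-0.73) are on 8q. *CLDN2* (2.12, from 0.275 to 0.602 CPM) and *NECTIN4* (1.74, from 0.851 to 1.25 CPM) rose, and desmosomal *DSP* (0.35) and *DSC2* (0.53) rose as well. Keratins went the other way from the junctions. Of 10 tested 6 rose and 1 fell, *KRT8* from 562, 662 and 585 CPM to 1206, 1098 and 915 CPM (0.83) and *KRT18* from 345 to 443 CPM to 633 to 668 CPM (0.79), and *KRT10* fell by 0.57 on the log2 scale. The keratin medians of the *AGO1* and *AGO1/2/3* knockout lines were -0.41 and -0.47.

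Signaling lists had more increases than the background. For TGF-beta and BMP signaling 14 of 35 rose and 4 fell. The ligands *INHBB* (2.74), *TGFB2* (2.31, from 0.802, 2.17 and 1.48 CPM to 6.56, 6.65 and 8.96 CPM) and *BMP4* (1.65, from 39.9 to 43.4 CPM to 110 to 143 CPM) and the inhibitor *SMAD7* (1.48) rose. *INHBB* was low in both lines, at 0.137 to 0.312 CPM against 1.12 to 1.87 CPM. The latent ligand binder *LTBP1* (-1.84) and the receptor *ACVR2A* (-1.63) fell. For the Hippo pathway and YAP targets 9 of 27 rose and 1 fell, with *ANKRD1* (4.41) and *CCN2* (2.15) as YAP targets and *WWTR1* (1.14), which encodes TAZ. *ANKRD1* was near the floor in *AGO2* knockout samples, at 0.0223 to 0.1 CPM against 0.793 to 1.7 CPM. *STK3* (8q), a kinase of the cascade, fell by 0.52 on the log2 scale. For ERK feedback 11 of 25 rose and 4 fell. The ERK phosphatases *DUSP6* (1.67, from 164, 98.7 and 102 CPM to 193, 446 and 521 CPM) and *DUSP4* (1.24) rose, and *FOS* (-1.72) and *DUSP2* (-1.31) fell, *FOS* without a call when *AGO1/2* knockout replicate 2 or 3 was left out. Without *AGO2* knockout replicate 3, 6 of the 11 were called, and without *AGO1/2* knockout replicate 3 or *AGO2* knockout replicate 1, 7. For WNT targets 9 of 22 rose and 5 fell, the feedback ligase *RNF43* from 71.3 to 78.9 CPM to 194 to 233 CPM (1.5) and *SP5* from 0.343 to 0.401 CPM to 1.02 to 1.52 CPM (1.71), with *SOX4* (-2.22) and *MMP7* (-1.59) lower, and 3 fell without replicate 3 of either line. For p53 targets 9 of 34 rose and none fell. *CDKN1A*, the cell cycle inhibitor p21, had 75.3, 71.4 and 90.5 CPM against 256, 178 and 155 CPM (log2 difference 1.31, SE 0.18, adjusted p = 0.00103), and *PLK2* rose by 1.70. *TP53INP1* (8q) rose by 0.78. The apoptosis and repair members *BAX* (0.18), *MDM2* (0.23) and *DDB2* (0.02) were not called.

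Genes for growth and DNA synthesis fell together. Ribosome biogenesis genes, which build ribosomes in the nucleolus, fell in 37 of 50 cases (74.0%, against 13.9% of all genes) and none rose, with a median log2 difference of -0.56. *NOP16* had 41.9, 61.9 and 48.5 CPM against 30.9, 23.8 and 22 CPM (-0.99), *BOP1* (8q) fell by 1.19 on the log2 scale and *NPM1* from 1332 to 1692 CPM to 941 to 1155 CPM (-0.56). DNA replication genes fell in 35 of 46 cases and none rose (median -0.60). *RFC3*, a subunit of the clamp loader, fell from 56.2, 73.9 and 65.9 CPM to 39.5, 26.8 and 33.0 CPM (-0.98). *GINS2* (-0.94), *MCM6* (-0.87) and *MCM4* (-0.86, 8q), parts of the replicative helicase, fell by a similar size. Of 33 replication-dependent histone genes 21 fell and none rose (median -0.65), *H4C4* from 219, 245 and 250 CPM to 135, 71.9 and 122 CPM (-1.11). Single differences were small, and only 1, 0 and 1 members of these lists were called with at least a 2-fold decrease. The number that fell depended on the samples. It ranged from 21 (without *AGO1/2* knockout replicate 2) to 46 for ribosome biogenesis, 19 (without *AGO2* knockout replicate 3) to 42 for DNA replication and 5 (without *AGO2* knockout replicate 3) to 22 for histones, where leaving out *AGO2* knockout replicate 2 gave 9. For ribosome biogenesis it was also 23 without *AGO2* knockout replicate 3, and for DNA replication 22 or 23 without *AGO1/2* knockout replicate 2 or 3 or *AGO2* knockout replicate 2. In each case none rose.

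Mitotic genes did not follow. Of 48 tested, 3 fell, *MAD2L1* (-0.99), *CDK1* (-0.76) and *KIF18A* (-0.63), and *CDC25B* rose by 0.75. Their spread within the *AGO1/2* knockout line was wide. *MKI67*, for the proliferation marker Ki-67, had 1379, 727 and 1060 CPM in replicates 1 to 3 and 1119 to 1264 CPM in *AGO2* knockout cells. The list median was 0.19, -0.72 and -0.26 in the *AGO1/2* knockout samples, so replicate 1 lay above and replicate 2 well below the *AGO2* knockout samples, and without replicate 1 the number that fell was 32. DNA replication genes showed the same order of samples, with -0.29, -0.86 and -0.65, but all lay below the *AGO2* knockout samples at -0.12 to 0.10.

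**Figure D4:**
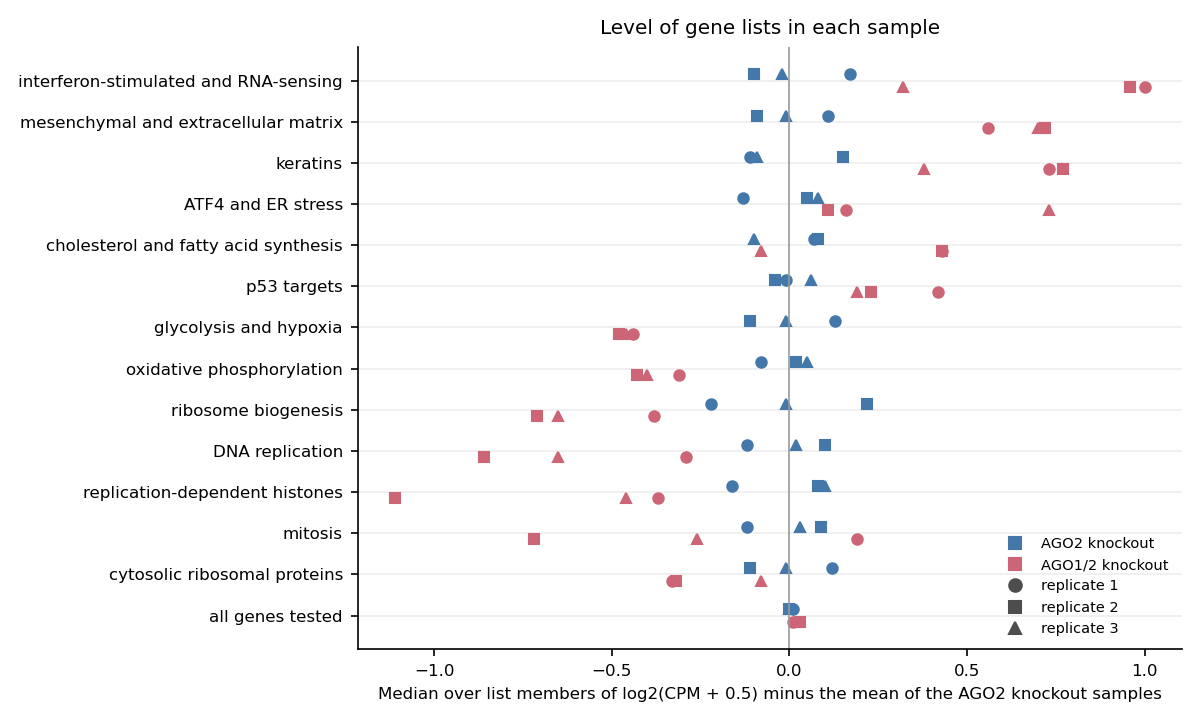
Median over the members of each list of log2(CPM + 0.5) in each sample, relative to the mean of the *AGO2* knockout samples (blue), with *AGO1/2* knockout samples in red and a symbol for each replicate. Interferon-stimulated genes lie at 1.0, 0.96 and 0.32 in *AGO1/2* knockout replicates 1 to 3, and mitotic genes at 0.19, -0.72 and -0.26.

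Genes for energy metabolism fell in larger numbers than the background. Of 66 nuclear genes for oxidative phosphorylation 45 fell and none rose (median -0.40), *UQCRB* from 217 to 235 CPM to 106 to 109 CPM (-1.06) and *COX6C* from 122 to 134 CPM to 57.1 to 67.6 CPM (-1.05), both on 8q like *CYC1* (-1.05) and *NDUFB9* (-0.76), and *NDUFA13*, on chromosome 19, by 1.0 on the log2 scale. Between 26 (without *AGO2* knockout replicate 3) and 49 fell when a sample was left out, and 30 without *AGO1/2* knockout replicate 2. Of 34 genes for glycolysis and the hypoxia response 20 fell and 4 rose. The hexokinase *HK2* had 141, 127 and 146 CPM against 44.3, 34.1 and 42.4 CPM (log2 difference -1.78, SE 0.12, adjusted p = 2.3e-05). *PDK1* (-1.47), *BNIP3* (-1.44) and *LDHA* (-0.77) fell too. Among the 4 that rose were the glucose transporters *SLC2A3* (1.68, from 5.15 to 8.49 CPM to 21.7 to 23.5 CPM) and *SLC2A1* (0.65), and *CA12* (1.22). The 20 decreases became 13 without *AGO2* knockout replicate 3. Of 78 cytosolic ribosomal protein genes 23 fell and none rose (median -0.26). The largest decreases were *RPL7* (-0.86), *RPL30* (-0.78) and *RPL8* (-0.59), all on 8q, and only 5 fell without *AGO1/2* knockout replicate 2 or *AGO2* knockout replicate 3, 12 to 15 without *AGO1/2* knockout replicate 1 or *AGO2* knockout replicate 1 or 2, and 37 without *AGO1/2* knockout replicate 3.

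Lipid synthesis and the amino acid response rose in part. Of 33 genes for cholesterol and fatty acid synthesis 12 rose and 2 fell (median 0.33). *SCD*, which desaturates fatty acids, had 1798, 1384 and 1442 CPM against 2437, 4200 and 2939 CPM (log2 difference 1.05, SE 0.19, adjusted p = 0.00433), and the fatty acid synthase *FASN* rose by 0.86. *SQLE* (8q) fell by 1.01 on the log2 scale. Enzymes of the middle of the cholesterol pathway such as *HMGCS1* (0.08), *IDI1* (0.19) and *DHCR7* (-0.07) were not called. The list median was 0.43, 0.43 and -0.08 in the *AGO1/2* knockout samples, and 7 rose without *AGO2* knockout replicate 3. Of 33 genes of the ATF4 and endoplasmic reticulum stress responses 9 rose and 1 fell. *CHAC1*, which degrades glutathione, had 2.82, 3.10 and 20.6 CPM in *AGO1/2* and 0.668, 1.08 and 1.05 CPM in *AGO2* knockout samples, a log2 difference of 3.24 with replicate 3 far above the others. The list stood at 0.16, 0.11 and 0.73 in the *AGO1/2* knockout samples. Replicate 3 was thus low for interferon and lipid genes and high for this list. Between 3 (without *AGO2* knockout replicate 3) and 13 (without *AGO1/2* knockout replicate 1) rose with a sample left out, 5 without *AGO2* knockout replicate 1.

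The study examined 22 genes with AGO2 binding in their 3′-UTR one by one. Here 5 rose and 8 fell, and 9 were not called. The study chose them by AGO2 binding in eCLIP samples of this series, and the direction here is of this set alone. *IL17RD*, a receptor that dampens FGF signaling, rose by 1.13, with 29.3, 18.1 and 21.4 CPM against 32.3, 57.8 and 61.1 CPM, and its mean was 605 CPM in the *AGO1/2/3* knockout line. *GPRC5A* rose by 0.88 (287 to 360 CPM against 443 to 669 CPM), *CYP2S1* by 0.59, *PHLPP2* by 0.54 and *TMEM245* by 0.52, the last with 138, 140 and 138 CPM against 197, 196 and 205 CPM. *PHLPP2* lost the call without *AGO2* knockout replicate 3. The decreases were larger. *MAL2* and *MYC* are on 8q and are described above. *GALNT3*, which starts O-glycans, had 11.6, 7.35 and 8.69 CPM against 0.603, 0.989 and 0.834 CPM (-3.51), *RGS16* fell by 1.98 and *S100A14* by 1.89 on the log2 scale, and *TSPAN13* and *PRSS8* by 0.67 each. *CEMIP* fell by 1.22 on the log2 scale with an adjusted p of 0.046, and missed the threshold under 8 of the alternatives, without *AGO2* knockout replicate 1 at a log2 difference of -0.67. *MSMO1*, *TUBB*, *TM2D2*, *ENTPD7*, *TNFSF9*, *EFNA1*, *TMEM184A*, *ABCC2* and *DDIT4* were not called, with log2 differences of -0.33 to 0.24.

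The line identity was checked with markers. Of 16 genes of colon epithelium 11 were tested and *CDX1* had 0 counts in every sample. Of the 11, 5 rose and 4 fell, and 3 rose without replicate 2 of either line or *AGO2* knockout replicate 3. Their summed level was 1770 to 1960 CPM in *AGO2* and 2240 to 2720 CPM in *AGO1/2* knockout samples, most of it from *KRT8*, *KRT18* and *KRT19*. Of 14 genes of blood cells 7 were tested and 5 of those rose (3 without *AGO2* knockout replicate 3), at a summed level of 5.15 to 6.19 CPM against 15.1 to 22.2 CPM. *LYZ* (lysozyme) rose from 0.156 to 0.225 CPM to 2.06 to 3.89 CPM and *CD68* from 2.33 to 2.41 CPM to 7.11 to 9.65 CPM, while the leukocyte gene *PTPRC* stood at 0.778 to 1.13 CPM against 1.05 to 1.26 CPM and was not called, and *CD3D* and *MS4A1* were at 0. Of 17 markers of other cell lines 5 were tested and 2 rose, *NES* (0.76) and *PAX2* (0.70, not called without replicate 2 of either line), at a sum of 41.0 to 50.2 CPM against 64.5 to 78.7 CPM, and *AFP*, *TFF1* and *TTR* were at 0. The part of these genes in the other results was not tested.

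Mitochondrial ribosomal RNA set the samples apart in another way. *MT-RNR2* had 17.6, 26.7 and 113 CPM in *AGO2* and 0.349, 0.750 and 3.45 CPM in *AGO1/2* knockout samples (log2 difference -5.14, SE 0.88, adjusted p = 0.00313), and *MT-RNR1* followed it (-5.01). Its means in the *AGO1* and *AGO1/2/3* knockout lines were 0.746 and 1.48 CPM, so the *AGO2* knockout line stood apart. The libraries were depleted of ribosomal RNA, and the part of that step in this difference was not tested. Of the 13 other mitochondrially encoded genes *MT-ND4L* (0.63) and *MT-ND3* (0.45) rose and none fell.

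Calls also moved with the kind and the build of the transcript. The part of the other quantification mode of the *AGO2* knockout files in this was not tested. That mode cannot be told apart from genotype, line or depth. Of protein coding genes 15.9% rose and 18.3% fell (median -0.02), whereas 9.17% of long noncoding RNAs rose and 4.97% fell (0.13) and 11.5% of pseudogenes rose and 3.36% fell (0.16). The 12818 protein coding genes with a mean level of 1 CPM or more were divided into 5 equal groups by transcript length and by GC content. Of the shortest group 11.7% rose and 25.9% fell, against 20% and 16.2% of the longest. Of the group with the lowest GC content 8.89% rose and 30.1% fell, against 23.8% and 11.6% of the highest. The medians spanned -0.16 to 0.04 over length and -0.15 to 0.07 over GC content, and the median of the ribosomal protein genes was -0.26. Relative to the median of genes of like length the interferon-stimulated list stood at 0.90, extracellular matrix at 0.72, ribosome biogenesis at -0.53, DNA replication at -0.52, oxidative phosphorylation at -0.27 and ribosomal proteins at -0.11. After a correction of each sample for GC content and length, chosen after the data were seen, 35, 24, 39, 35, 40 and 19 of their members were called in the same direction, with 33, 25, 37, 35, 45 and 23 before it.

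**Figure D5:**
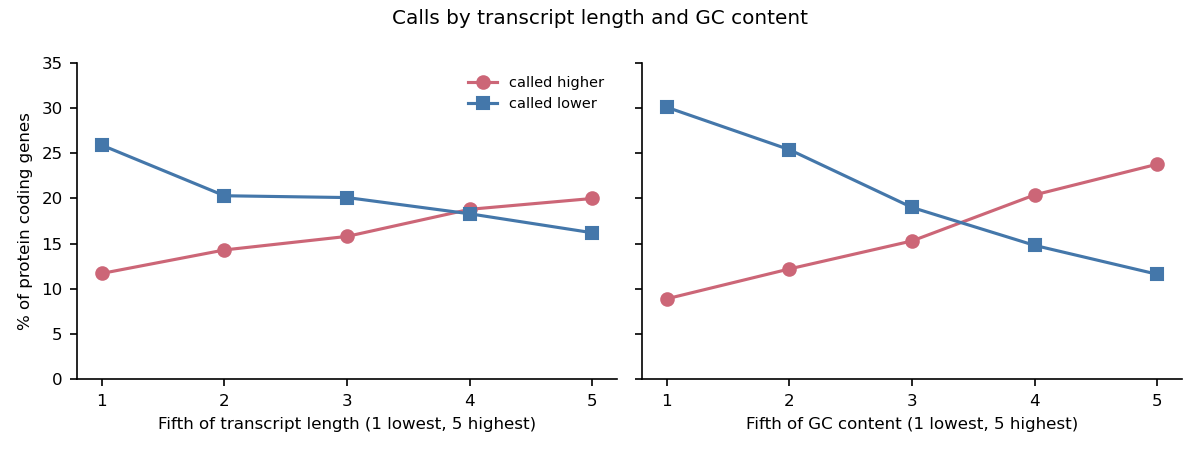
Percentage of protein coding genes with a mean level of 1 CPM or more called higher (red) or lower (blue), in 5 equal groups from low to high by transcript length (left) and GC content (right). Decreases fall from 25.9% to 16.2% with length and from 30.1% to 11.6% with GC content, and increases go the other way.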

How the data were processed

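Stranded, ribosomal RNA-depleted total RNA of HCT116 knockout lines was sequenced as paired-end reads. According to the methods, the authors harvested 3 biological replicates of each line, filtered the reads, aligned them to hg38 with STAR and quantified them with Salmon. They deposited estimated counts per gene, 1 file a sample. Tool versions differ between the sources, and the submitters' processing notes name STAR 2.5.3a and Salmon 0.11.0. The labels and the methods also differ in how RNA was extracted. The headers of the *AGO2* knockout files add the word quasi. Gene positions and types came from GENCODE v44, which matched 57167 of 57875 genes.

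Estimated counts were rounded to whole numbers, filtered with filterByExpr, scaled by TMM and tested with edgeR 4.0.16 (quasi-likelihood, R 4.3.3) in the 6 samples without covariates. DESeq2 1.42.0 served as an alternative. The steps were tested on simulated data. Other tables used Python 3.11.15 with pandas 2.3.3, numpy 2.4.6 and scipy 1.17.1. Totals of 28294976 to 45271146 counts set the precision, with a floor of 3 counts per library. Values for other knockout lines came from a scaling of 12 knockout samples. Comparisons with those lines share the *AGO2* knockout samples. No per-sample column was left unused within the files of this comparison. eCLIP and wild-type samples were not used here.

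Named genes were the Argonautes, TNRC6 genes, *DICER1* and *TARBP2*, and the 10 largest called increases and decreases among protein coding genes outside 8q with a mean level of 1 CPM or more and no overlap between the lines. The 4 largest decreases and 2 largest increases of 8q followed the same rule. In each list up to 2 called members each way were named, and the 22 genes the study examined were added. All other genes in the report, such as *VIM*, *CDH1*, *ZEB1*, *MKI67*, *IFNE* and members given as not called, were picked with their values in view. The lines compared, the members and the lists were chosen with earlier results of these data known. Alternatives changed scaling, filter, tool, samples in the fit, gene types, a replicate block and a 2-fold threshold, and left out each sample in turn. A correction of each sample for GC content and length by loess (span 0.3), for which 98.9% of genes had values, was added after the data were seen. Promoter and protein sequences were not used here. Some members of the lists are counted but not reported by name here.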

Additional observations from a re-analysis of the deposited data

How the results depend on the processing

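*AGO1* was lower by 2.09 to 2.25 on the log2 scale under all 17 alternatives (-2.15 to -2.11 with a sample left out). The numbers of genes that rose or fell (3069 and 3021) stayed within 1.5 times under 14 of 18 alternatives. Leaving out a sample gave 1789 to 3408 increases and 1663 to 3504 decreases, the fewest without *AGO2* knockout replicate 3 (1789 and 1663) or *AGO1/2* knockout replicate 2 (1869 and 1749). A 2-fold threshold left 1053 increases, 515 decreases and 72 of 212 decreases on 8q, which were otherwise 179 to 232. Scaling by total counts moved the median of all genes to 0.07 and gave 3321 increases and 2575 decreases, and DESeq2's Wald test gave 2533 and 3323, so that 43.3% to 56.3% of calls were increases. Of 122 named genes called, beside *AGO1*, 101 never lost the call under those of the 17 alternatives that tested them, the 2-fold threshold aside. An alternative that left a gene out, or gave it no adjusted p, was not counted as a loss. Of those not called, 5 were called under some alternative (*AGO2*, *TARBP2*, *TUBB*, *TM2D2* and *TMEM184A*).

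With the replicate number as a block, 1906 genes rose and 1667 fell. Deviations of same-numbered samples correlated at -0.381, -0.239 and -0.0137, so the numbers did not pair the samples. Under the block, 9 named genes were not called, and 5 ribosomal protein genes fell.

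Signs changed for 5 named genes, none of them called. *AGO3* was -0.00 without a filter and -0.01 without *AGO1/2* knockout replicate 3. *TNRC6A* was 0.02 with total counts, 0.01 with protein coding genes alone, 0.10 without *AGO2* knockout replicate 2 and 0.02 without *AGO1/2* knockout replicate 2 or 3, in a range of -0.14 to 0.10 with a sample left out. With a sample left out, *MSMO1* ranged from -0.03 to 0.34 (below 0 also at -0.02), *ABCC2* from -0.31 to 0.13 (above 0 also at 0.07) and *DDIT4* from -0.69 to 0.77 (below 0 also at -0.29 and -0.10). The causes were not tested. Depth was lower in all *AGO1/2* knockout samples. Genotype, line, depth and quantification mode cannot be told apart.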
